A study of Mus musculus with 12 samples.

Results

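The Hox genes of the proximal colon were taken from the count table by symbol, as every gene named Hox followed by a cluster letter from a to d and a paralog number. The rule gave 39 genes of 55376, of which 11 lie in cluster A on chromosome 6, 10 in cluster B on chromosome 11, 9 in cluster C on chromosome 15 and 9 in cluster D on chromosome 2 (mm10). RNA-Seq of total RNA had been done on the proximal part of the colon of 12 mice, each 12 weeks old and each giving 1 library. EPR, a long noncoding RNA made in epithelium, stands in the table as Smim31. The 6 control mice (EPR fl/fl) carry EPR alleles flanked by loxP sites and have no Cre. The 6 knockout mice (EPR cKO) carry the same alleles and the CDX2P-NLS Cre transgene, in which regulatory sequence of the human CDX2 gene drives Cre in epithelial cells from the end of the ileum through the colon. Mice with the transgene but without loxP sites were not analysed here. The tissue was frozen whole, and a library therefore holds RNA of epithelium, muscle, nerves, vessels, immune cells and fat. Fewer cells of a type cannot be told apart from less RNA per cell.

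Hox genes encode homeodomain transcription factors that stand in clusters in the order in which they are used along the body axis. Genes of low paralog number act toward the head, those of the highest number toward the tail end, and the gut keeps such a code in the adult, in its muscle and connective tissue and in part in its epithelium. Hoxa13 and Hoxd13 are known for the development of the hindgut and its outlet. The levels of the clusters were therefore compared between EPR cKO and EPR fl/fl by paralog number, and were used as a check of where along the colon the pieces were taken. No piece of known position was analysed here, so that the levels describe the pieces and do not place them.

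Depth was 13093904 to 33211041 counts per library. EPR counts were 297 to 1474 in the EPR fl/fl libraries and 0 to 10 in the EPR cKO libraries, so that the labels held. A tissue composition score, the mean log2 CPM (counts scaled to the size of the library) of 10 epithelial genes minus that of 10 smooth muscle genes, was 1.37 to 2.15 in EPR fl/fl. In EPR cKO it was 0.44 in replicate 1, below all controls, and 2.40 to 3.97 in the other 5, above all controls. Hox genes took 0.0222% of all counts, and a gene was tested where it reached 1 CPM in at least 4 libraries, which 23 of the 39 Hox genes did (10 of cluster A, 8 of B, 5 of D and 0 of C). Of the others, 13 had counts but were not tested and 3, Hoxb1, Hoxc12 and Hoxc13, had a count of 0 in every library. The 13 untested genes had 6 (Hoxd12) to 201 (Hoxc6) counts over all libraries. A count of 0 allows up to 3 counts, or 0.0935 to 0.2197 CPM depending on the library, for counting error only.

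The proximal colon showed a Hox profile led by the middle of cluster B. Levels were compared between genes as CPM per kilobase of exon, with library sizes scaled by TMM (a trimmed mean of log ratios). Hoxb6 was highest, at 23.7 ± 6.00 in EPR fl/fl mice and 25.3 ± 2.98 in EPR cKO mice (mean ± SD, n = 6 each, as for all group values here). Hoxb9 followed at 15.3 ± 1.71 and 14.5 ± 2.11, and Hoxb7 at 10.3 ± 1.23 and 10.99 ± 1.79. The next 3 were Hoxb5 (6.79 ± 1.83 and 6.995 ± 2.31), Hoxb4 (5.04 ± 1.79 and 4.78 ± 0.757) and Hoxa7 (4.32 ± 1.30 and 5.17 ± 1.56), and neighbours among these 3 lay within their spread. Cluster B held 57.7% to 76.9% of the summed Hox level in EPR fl/fl libraries and 56.8% to 81.9% in EPR cKO libraries. Cluster A held 10.2% to 25.0% and 10.4% to 20.8%, and cluster D 8.65% to 14.8% and 6.25% to 20.1%. Both groups thus overlapped in each share, and the highest share of cluster D and the lowest of cluster B were in EPR cKO 1. Cluster C was low throughout, and its highest member, Hoxc6, was at 0.505 ± 0.139 and 0.476 ± 0.201 CPM per kilobase.

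**Figure D1:**
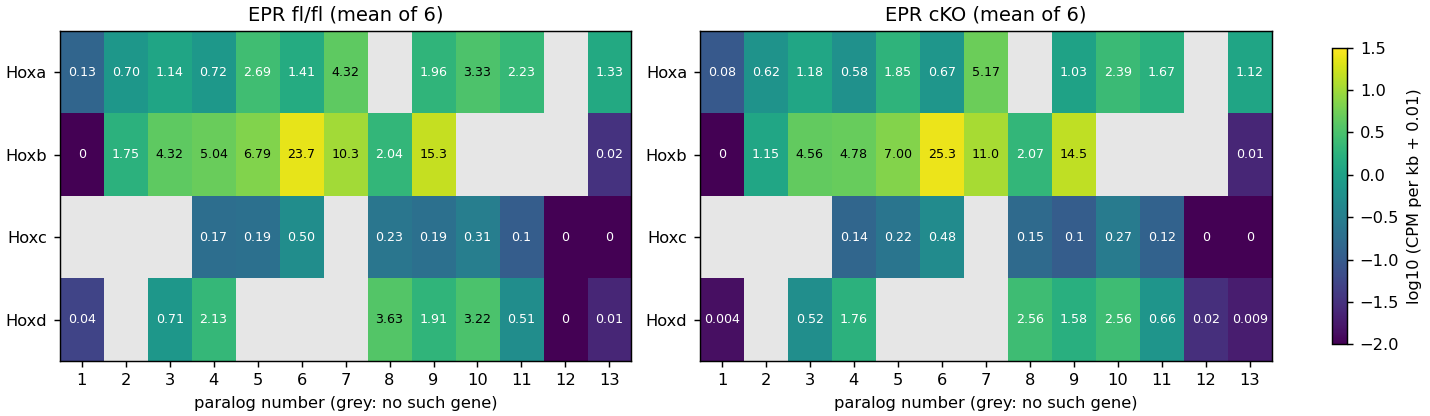
Mean level of each Hox gene in CPM per kilobase by cluster (rows) and paralog number (columns), for the 6 EPR fl/fl and the 6 EPR cKO libraries. Colour is on a log10 scale, grey marks paralog numbers that a cluster lacks, and the row of Hoxb genes is brightest, with Hoxb6 at 23.7 in the controls and 25.3 in EPR cKO.

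Along the axis, genes of paralog numbers 4 to 8 gave the largest part of the level and those at the tail end the smallest. Their summed level was 63.8 ± 8.73 CPM per kilobase in the controls and 63.7 ± 5.13 in EPR cKO. Paralog numbers 9 to 12 summed to 29.1 ± 2.79 and 24.9 ± 7.31, numbers 1 to 3 to 8.80 ± 1.54 and 8.12 ± 1.49, and number 13 to 1.37 ± 0.763 and 1.14 ± 1.16. Ranges of all 4 sums overlapped between the groups. The sums run over unequal numbers of genes, of which 11, 6, 5 and 1 were tested, in the order given. Hoxb6 alone gave 23.7 of the 63.8 CPM per kilobase of numbers 4 to 8 in the controls.

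The genes of paralog group 13 were almost wholly Hoxa13. Hoxb13, on chromosome 11 at 96194316 to 96197447 on the plus strand, had 13 counts over all 12 libraries and at most 5 in one of them. Hoxd13, on chromosome 2 at 74668310 to 74671599 on the plus strand, had 7 counts and at most 2 in a library. These counts lie near the floor of the assay, and no fold is given. Hoxa13, on chromosome 6 at 52257694 to 52260880 on the minus strand, had 36 to 202 counts in EPR fl/fl libraries and 9 to 176 in EPR cKO libraries.

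Of the 23 tested Hox genes, Hoxa13 had the largest SD of log2 CPM in either genotype. In EPR fl/fl its lowest, median and highest levels were 1.17, 3.03 and 6.40 CPM, and in EPR cKO 0.343, 2.08 and 7.46 CPM. EPR cKO replicates 1, 2 and 3 lay at 3.58, 7.46 and 4.11 CPM, within or above the range of the controls, while replicates 4, 5 and 6 lay at 0.581, 0.343 and 0.479 CPM, below every control. The SD of its log2 CPM was 0.82 in EPR fl/fl, which 2.83% of all tested genes exceeded, and 1.78 in EPR cKO, which 0.295% exceeded. The log2 fold change of EPR cKO relative to EPR fl/fl was −0.26 (SE 0.69, 95% interval −1.74 to 1.23, edgeR adjusted p = 0.857), a range that leaves changes of either direction possible.

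The A cluster genes beside Hoxa13 showed a similar split of the EPR cKO mice. Hoxa9, Hoxa10 and Hoxa11, genes of posterior identity named after their values were seen like all further Hox genes given by library outside group 13 and the 6 of highest level, were low in the same 3 libraries. Hoxa9 was at 2.70 to 9.23 CPM in EPR fl/fl (median 6.52), at 5.17, 6.44 and 4.86 CPM in EPR cKO 1, 2 and 3, and at 1.56, 0.842 and 1.06 CPM in EPR cKO 4, 5 and 6. Hoxa10 was at 5.20 to 14.8 CPM in EPR fl/fl (median 10.2), at 18.9, 11.02 and 8.22 CPM in EPR cKO 1, 2 and 3, and at 2.68, 1.96 and 2.29 CPM in EPR cKO 4, 5 and 6. For both genes the last 3 mice lay below all 6 controls and the first 3 within or above them. Their log2 fold changes were −0.92 (SE 0.50, edgeR adjusted p = 0.344) for Hoxa9 and −0.48 (SE 0.52, edgeR adjusted p = 0.633) for Hoxa10. Hoxa11 was at 4.13, 4.58 and 7.17 CPM (lowest, median and highest) in EPR fl/fl and at 1.251, 2.502 and 11.1 CPM in EPR cKO, where replicate 1 was the highest of all 12 libraries and the other 5 lay just below or far below the controls. Its log2 fold change was −0.42 (SE 0.48, edgeR adjusted p = 0.651), and 24.8% of its exon bases lie opposite the antisense gene Hoxa11os.

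Among other A cluster genes, Hoxa5 and Hoxa6, of middle paralog number, showed the same split, while Hoxa7 differed from it. Hoxa7, a gene of the trunk, was at 5.72 to 14.6 CPM in EPR fl/fl (median 10.9) and 7.32 to 17.8 CPM in EPR cKO (median 13.3). Its low libraries were EPR fl/fl 4 and EPR cKO 1, its levels in EPR cKO 3, 4 and 6 were 17.8, 15.4 and 14.96 CPM, above all controls, and its log2 fold change was 0.26 (SE 0.24, edgeR adjusted p = 0.581). The antisense gene Hoxaas3 lies opposite 23.3% of the Hoxa7 exon bases. Hoxa5, known for the gut and lung mesenchyme, was at 3.19 to 6.15 CPM in EPR fl/fl (median 5.14) and ran in EPR cKO from 1.22 CPM in replicate 5 to 7.76 CPM in replicate 1 (median 3.16). Hoxa5 was at 7.76, 4.07 and 3.41 CPM in EPR cKO 1, 2 and 3. It was at 2.90, 1.22 and 1.49 CPM, below every control, in EPR cKO 4, 5 and 6. The groups overlapped, with a log2 fold change of −0.54 (SE 0.38, edgeR adjusted p = 0.458). Hoxa6 had the largest fold change of the 23 tested genes, −1.06 (SE 0.55, edgeR adjusted p = 0.325), at 0.488 to 2.15 CPM in EPR fl/fl and 0.0624 to 1.40 CPM in EPR cKO, where counts in a library went down to 2. Its levels in EPR cKO 4, 5 and 6, 0.313, 0.0624 and 0.266 CPM, lay below every control. Those in EPR cKO 1, 2 and 3, 0.495, 0.975 and 1.40 CPM, lay within the range of the controls.

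Of the 5 tested cluster D genes, Hoxd8, Hoxd9 and Hoxd10 were set apart by 1 library. Hoxd8 was at 8.74, 9.42 and 12.0 CPM (lowest, median and highest) in EPR fl/fl, at 17.1 CPM in EPR cKO 1 and at 3.59 to 6.95 CPM in the other 5 EPR cKO libraries. Hoxd9 was at 2.73, 3.57 and 6.17 CPM in EPR fl/fl, 9.96 CPM in EPR cKO 1 and 1.28 to 3.10 CPM in the others, and Hoxd10 at 3.71, 5.95 and 7.76 CPM, 14.8 CPM and 1.597 to 3.604 CPM. EPR cKO 1 was thus the highest of 12 libraries for all 3 genes, while the other 5 mice lay below every control for Hoxd8 and Hoxd10 and for Hoxd9 overlapped with EPR fl/fl 3. The log2 fold changes with all libraries were −0.51 (SE 0.33) for Hoxd8, −0.27 (SE 0.45) for Hoxd9 and −0.33 (SE 0.49) for Hoxd10, with edgeR adjusted p-values of 0.427 to 0.760. Hoxd3 and Hoxd4 share 68.6% and 45.1% of their exon bases with the gene Gm28230 on the same strand, so that their counts depend on how such reads were assigned. Hoxd3 and Hoxd4 shared the pattern of Hoxd8 to Hoxd10 only in part, since EPR fl/fl 4 was their highest library. Hoxd4 in EPR cKO 3, 4, 5 and 6 (3.90 to 4.36 CPM) lay below every control (lowest 4.41 CPM). Hoxd3 in EPR cKO 3, 4 and 5 (1.21 to 1.40 CPM) also lay below every control (lowest 1.56 CPM). Log2 fold changes were −0.44 (SE 0.23) for Hoxd3 and −0.27 (SE 0.16) for Hoxd4. Hoxd11 and Hoxd12 were too low to test, with 163 and 6 counts over all libraries.

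The leading B cluster genes overlapped between the groups. Hoxb6 was at 37.0, 40.7 and 65.9 CPM (lowest, median and highest) in EPR fl/fl and 41.8, 50.9 and 55.6 CPM in EPR cKO, and the log2 fold change was 0.09 (SE 0.15, edgeR adjusted p = 0.749). Hoxb9 was at 33.9, 39.9 and 44.7 CPM in EPR fl/fl and 27.1, 38.1 and 42.1 CPM in EPR cKO, the lowest value being that of EPR cKO 1, and the log2 fold change was −0.08 (SE 0.11, edgeR adjusted p = 0.699). Hoxb7 was at 11.6, 12.99 and 15.2 CPM and 10.5, 14.5 and 17.6 CPM, and the log2 fold change was 0.10 (SE 0.12, 95% interval −0.16 to 0.36). The SD of log2 CPM was 0.34 among controls and 0.17 among EPR cKO mice for Hoxb6, exceeded by 27.3% and 70.4% of all tested genes, and 0.16 and 0.23 for Hoxb9, exceeded by 66.6% and 54.7%. Hoxb8, of lower level, had an SD of 0.44 in EPR fl/fl, exceeded by 16.1%, and of 0.16 in EPR cKO, exceeded by 76.0%.

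Hoxb5 and Hoxb4 also overlapped, at 9.08 to 18.4 CPM against 8.17 to 21.0 CPM for Hoxb5 and 8.86 to 20.9 CPM against 9.48 to 14.5 CPM for Hoxb4. Hoxb2, which acts in the hindbrain, was at 2.37, 2.84 and 3.46 CPM in EPR fl/fl and 1.21, 1.55 and 3.58 CPM in EPR cKO. Again EPR cKO 1 was the highest of the 12 libraries and the other 5 mice lay below the controls. For Hoxb2 58.5% of the exon bases, and for Hoxb3 63.9%, lie opposite the antisense gene Hoxb3os. The log2 fold change of Hoxb3 was 0.07 (SE 0.17) and that of Hoxb8 0.02 (SE 0.19). In cluster A, Hoxa2, Hoxa3 and Hoxa4 were at −0.20 (SE 0.28), 0.045 (SE 0.17) and −0.32 (SE 0.27). Whether the counting used the strand was not given in the sources used here.

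**Figure D2:**
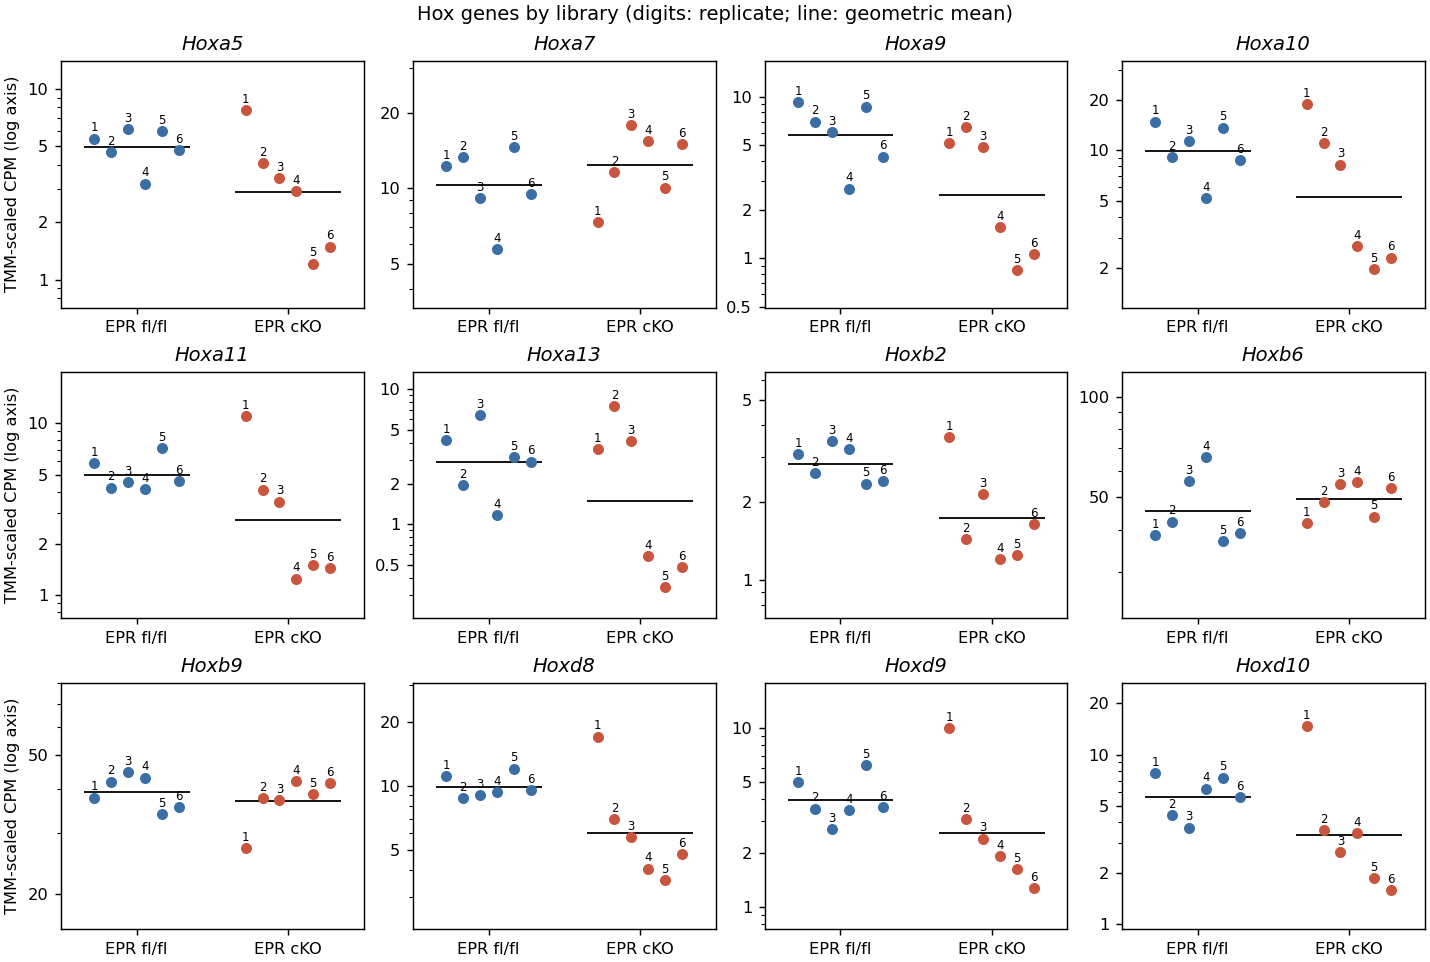
TMM-scaled CPM of 12 Hox genes in each library on log axes, with the 6 EPR fl/fl mice in blue, the 6 EPR cKO mice in red, the replicate number at each point and a line at the geometric mean. EPR cKO 4, 5 and 6 lie lowest for Hoxa5, Hoxa9, Hoxa10, Hoxa11 and Hoxa13. EPR cKO 1 lies highest for Hoxd8, Hoxd9 and Hoxd10, and Hoxb6 and Hoxb9 overlap between the groups.

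Over all tested Hox genes, the comparison of EPR cKO with EPR fl/fl gave no call. By edgeR's quasi-likelihood test at an adjusted p under 0.05, 0 of 23 passed in the lower and 0 in the higher direction, where 1.57% of all 15952 tested genes were called lower and 0.884% higher. At the thresholds of the study (adjusted p under 0.001 with a minimum fold change, either way) 0 of 23 were called, beside 0.169% of all genes. At an unadjusted p under 0.05, 1 of 23 passed, beside 18.3% of all genes. This gene was Hoxb2, at −0.62 (SE 0.26, edgeR adjusted p = 0.239). Groups did not overlap for 0 of 23 Hox genes and for 2.47% of all genes. The DESeq2 Wald test and limma-voom also called 0, beside 5.74% and 3.15% of all genes tested in these fits, either way.

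Fold changes of 16 of the 23 genes were below 0, with a median of −0.27, beside 47.2% of all tested genes below 0 and a median of 0.02. By cluster, 8 of 10 A genes (median −0.37), 3 of 8 B genes (median 0.03) and 5 of 5 D genes (median −0.33) were below 0. By position, the median was −0.20 for paralog numbers 1 to 3 (3 of 5 below 0), −0.09 for 4 to 8 (6 of 11) and −0.38 for 9 to 12 (6 of 6). These are values of genes that did not pass the test, with SEs of 0.11 for Hoxb9 to 0.69 for Hoxa13 beside a median SE of 0.145 over all genes.

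**Figure D3:**
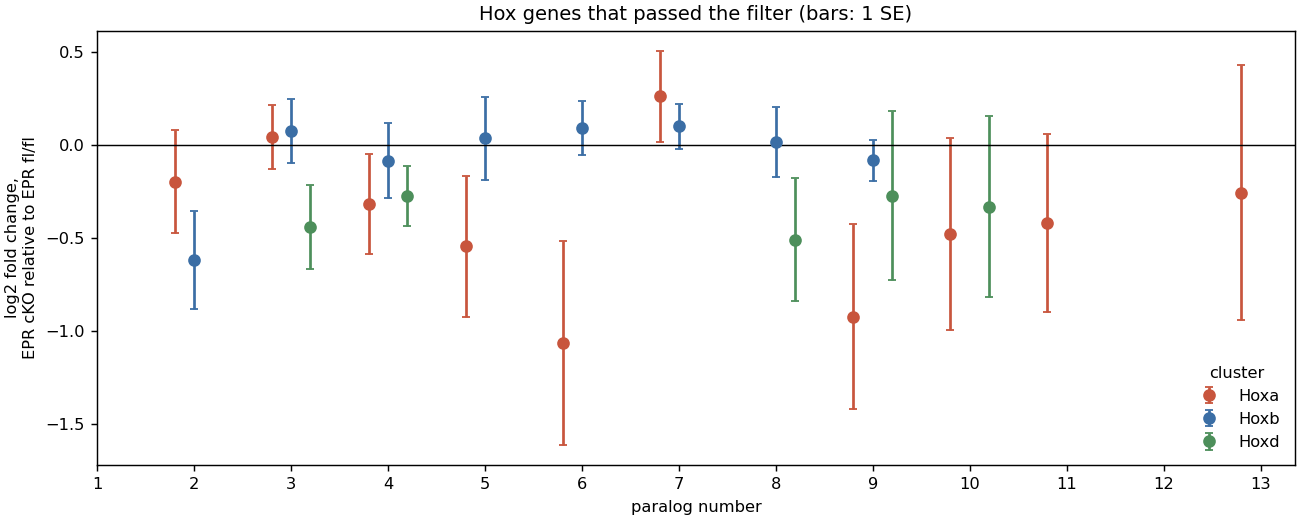
Log2 fold change of EPR cKO relative to EPR fl/fl for the 23 tested Hox genes by paralog number, coloured by cluster, with bars of 1 SE and a line at 0. Points of cluster B lie near 0 apart from Hoxb2 at −0.62, those of cluster D lie below 0 and those of cluster A spread from −1.06 (Hoxa6) to 0.26 (Hoxa7), and 0 genes passed an adjusted p of 0.05.

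The count of calls depended on EPR cKO 1. Without this library edgeR called 6 of 23 Hox genes lower and 0 higher, when 14.4% of all tested genes were called lower and 1178 of 15836 higher. The 6 were Hoxd8 (−1.01, adjusted p = 0.00316), Hoxb2 (−0.92, 0.00709), Hoxd10 (−1.16, 0.00999), Hoxd9 (−0.99, 0.0209), Hoxa11 (−1.12, 0.0271) and Hoxa5 (−0.96, 0.0382), given as log2 fold changes with edgeR adjusted p-values. Quality weights in limma-voom, which give less weight to libraries that stand apart, called 5 of these (not Hoxa5), when 11.9% of all genes were called lower. EPR cKO 1 was the highest library for 8 of 23 Hox genes and for 20.6% of all tested genes, and EPR cKO 5 the lowest for 8 of 23 and for 13.6%.

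Hox genes were then set against tissue composition. A fit with genotype and the composition score together gave each gene a slope, the log2 change for each unit by which the score was higher. The slopes were taken from it as a result of their own after the data were seen. Slopes were negative at an adjusted p under 0.05 for 8 of 23 Hox genes, where 18.6% of all tested genes were, and positive for 2, where 13.2% were. The 8 genes were Hoxa5 (−0.66 ± 0.11, slope ± SE), Hoxa10 (−0.92 ± 0.16), Hoxa11 (−0.86 ± 0.10), Hoxb2 (−0.38 ± 0.10), Hoxb5 (−0.34 ± 0.08), Hoxd8 (−0.59 ± 0.06), Hoxd9 (−0.76 ± 0.10) and Hoxd10 (−0.80 ± 0.11). The positive ones were Hoxb7 (0.16 ± 0.05) and Hoxb9 (0.16 ± 0.05). The steepest slope was that of Hoxa13, −1.14 ± 0.42, but with an adjusted p of 0.0561.

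Without EPR cKO 1, whose score was the lowest, 4 Hox genes had negative slopes, Hoxa5 (−0.90), Hoxa10 (−1.41), Hoxa11 (−0.96) and Hoxa13 (−2.64), with edgeR adjusted p-values of 0.00684 to 0.0406, beside 4.16% of all genes. No Hox gene had a positive one, beside 0.714% of all genes. D cluster slopes were −0.46, −0.58 and −0.48 for Hoxd8, Hoxd9 and Hoxd10 in that fit, with adjusted p-values of 0.0746 to 0.323. With the score in the model and all libraries, the median log2 fold change of the Hox genes between genotypes was 0.006. In that fit 0 were called, beside 1.96% of all genes either way. No EPR cKO score lay within the range of the controls, so that genotype and composition cannot be told apart in these fits. The lowest Hoxa13 levels and the highest scores occurred in the same 3 mice, EPR cKO 4, 5 and 6. EPR cKO 2 and 3 also had scores above every control (2.40 and 2.79), with Hoxa13 at 7.46 and 4.11 CPM. The score covers epithelium and smooth muscle only, and other cell types are given below. The part of the position of the piece in these values was not tested.

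**Figure D4:**
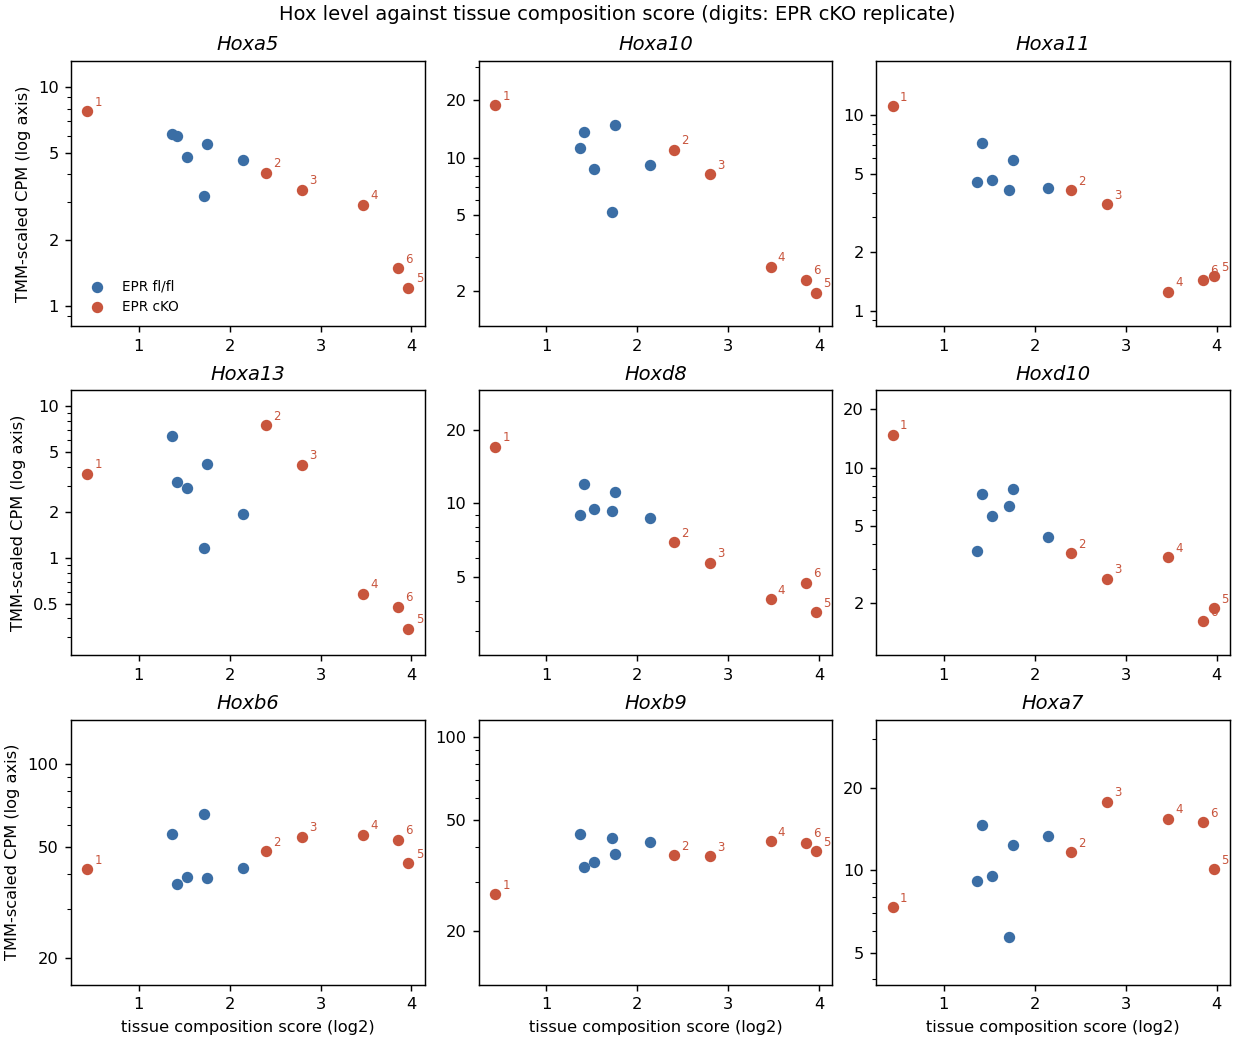
TMM-scaled CPM of 9 Hox genes (log axes) against the tissue composition score of the library, with EPR fl/fl in blue and EPR cKO in red with replicate numbers. Hoxa5, Hoxa10, Hoxa11, Hoxd8 and Hoxd10 are lower at higher scores, the slopes of Hoxb6 and Hoxa7 did not pass the test, and EPR cKO 4, 5 and 6 have both the highest scores (3.47 to 3.97) and the lowest Hoxa13.

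As a measure less bound to total Hox content, ratios within a library were taken, with no test. The log2 ratio of the summed level of paralog numbers 9 to 12 to that of 4 to 8 was −1.13 ± 0.24 in the controls (−1.45 to −0.84) and −1.39 ± 0.33 in EPR cKO (−1.68 to −0.78). The ranges overlapped, and the difference of −0.27 was close to the SD of either group. Within cluster A, the log2 ratio of Hoxa9 to Hoxa13 over Hoxa4 to Hoxa7, chosen after the data were seen, was −0.06 ± 0.27 in the controls and −0.88 ± 1.21 in EPR cKO. It was 0.77, 0.28 and −0.64 in EPR cKO 1, 2 and 3 and −2.06, −1.64 and −1.99 in EPR cKO 4, 5 and 6, where the lowest control was at −0.42. Group 13 made up 0.425% to 2.26% of the summed Hox level in EPR fl/fl, 1.23% to 3.01% in EPR cKO 1, 2 and 3 and 0.216% to 0.266% in EPR cKO 4, 5 and 6. The last 3 mice thus had the lowest tail-end share of all 12 on both A cluster measures. Hoxa7 made up most of the Hoxa4 to Hoxa7 sum, with a mean of 5.17 of 8.26 CPM per kilobase in EPR cKO. Hoxa5 and Hoxa6 were themselves below every control in EPR cKO 4, 5 and 6. The A cluster ratio of these mice therefore rests largely on Hoxa7 and does not describe all genes of middle paralog number. The ratios were not corrected for tissue composition. Slopes on its score ran from −1.14 (Hoxa13) to −0.69 (Hoxa9) for Hoxa9 to Hoxa13. Those of Hoxa4 to Hoxa7 ran from −0.66 (Hoxa5) to 0.23 (Hoxa7). The part of tissue composition in the ratios was not tested.

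**Figure D5:**
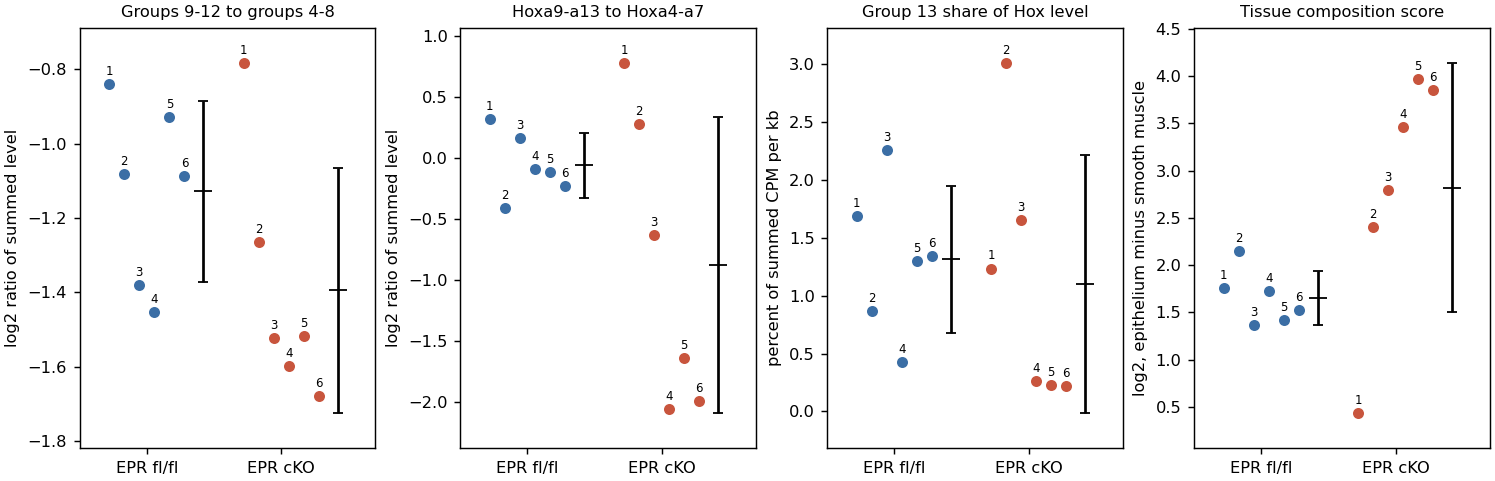
Values per library of the log2 ratio of paralog numbers 9 to 12 to 4 to 8, the log2 ratio of Hoxa9-a13 to Hoxa4-a7, the percentage of group 13 in the summed Hox level and the tissue composition score, with the mean and SD of each group as a black bar. EPR cKO 4, 5 and 6 lie together at the bottom of the A cluster ratio (−2.06 to −1.64) and of the group 13 share, and at the top of the tissue composition score.

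Other genes of position were used beside the Hox code. Cdx2 and Cdx1, which set intestinal identity and are known regulators of Hox genes, had the smallest p-values of 8 tested genes in a list of 15 position factors, with log2 fold changes of 0.30 (SE 0.12, edgeR adjusted p = 0.204) and 0.29 (SE 0.13, edgeR adjusted p = 0.239). Gata4, of the upper small intestine, reached at most 1.40 CPM, and Barx1, of the stomach, had no count. The list of small intestinal genes had 5 of 10 tested, with 0 called, beside 1.57% of all tested genes called lower and 0.884% higher. In it, Fabp6, an ileal bile acid carrier, had the smallest p, with a log2 fold change of −2.02 (SE 0.50, edgeR adjusted p = 0.0515). Fabp6 was at 2.35 to 17.4 CPM in EPR fl/fl and 0.440 to 2.34 CPM in EPR cKO. These ranges only just did not overlap, and groups did not overlap for 2.47% of all tested genes. Alpi, an intestinal phosphatase, was next, at 0.58 (SE 0.19, edgeR adjusted p = 0.137). Lyz1 was at −1.14 (SE 0.41, edgeR adjusted p = 0.166). Slc10a2, the most abundant gene of the list, was at −0.14 (SE 0.17, edgeR adjusted p = 0.673). Sis was at −0.115 (SE 0.46, edgeR adjusted p = 0.908).

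TALE homeodomain proteins (Pbx, Meis and Pknox) bind DNA together with Hox proteins. Of 9 such genes 8 were tested, 0 were called, 7 had fold changes below 0 and the median was −0.32. Over all tested genes 1.57% were called lower and 0.884% higher, 47.2% were below 0 and the median was 0.02. Meis3 had the smallest p (−0.36, SE 0.17, edgeR adjusted p = 0.274), followed by Meis2 (−0.58, SE 0.47, edgeR adjusted p = 0.528). Meis2 was at 12.3 to 27.3 CPM in EPR fl/fl, 36.9 CPM in EPR cKO 1 and 4.68 to 10.3 CPM in the other 5, which lay below the controls as for Hoxd8 and Hoxd10.

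Polycomb and Trithorax proteins keep Hox clusters silent or active. All 23 listed genes were tested and 0 were called, beside 1.57% of all tested genes called lower and 0.884% higher. The median was 0.07. Wdr5, of the Trithorax complexes, had the smallest p (0.30, SE 0.09, edgeR adjusted p = 0.101), followed by the Polycomb gene Suz12 (0.17, SE 0.07, edgeR adjusted p = 0.221). Of 14 patterning signals, the retinoic acid, Wnt, Bmp and hedgehog genes that set Hox domains, 11 were tested and 0 called. In this list 10 were below 0 and the median was −0.20, beside 47.2% below 0 and a median of 0.02 over all tested genes. Cyp26b1, which degrades retinoic acid, was at −1.29 (SE 0.58, edgeR adjusted p = 0.263) and Wnt5a at −0.59 (SE 0.29, edgeR adjusted p = 0.301).

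Lists of markers of the cell types in the tissue had 0 called genes, beside 1.57% of all tested genes called lower and 0.884% higher. Of all tested genes 47.2% had fold changes below 0, with a median of 0.02. In the lists, fold changes were above 0 for 10 of 10 epithelial genes (median 0.29). They were below 0 for 10 of 10 smooth muscle genes (median −0.48) and 12 of 12 genes of enteric neurons and glia (median −0.38). Summed smooth muscle level was 3378 to 5776 CPM in EPR fl/fl and 1207 to 9982 CPM in EPR cKO, and that of epithelial genes 9708 to 14432 and 11781 to 18094 CPM. Medians were −0.12 for fibroblast, −0.28 for endothelial, −0.28 for immune, −1.47 for adipocyte and −0.78 for mesothelial genes. Summed mesothelial level was 27.4, 26.9 and 16.6 CPM in EPR cKO 1, 2 and 3 and 1.56, 3.09 and 5.11 CPM in EPR cKO 4, 5 and 6. This is the split seen for Hoxa13. In EPR fl/fl it was 3.49 to 63.4 CPM, and the lowest, EPR fl/fl 3, had the highest control Hoxa13 (6.40 CPM). The part of these cell types in the Hox values was tested only through the slopes on the epithelial and smooth muscle score.

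Of 63 other genes within 50 kb of the Hox genes of the 4 clusters, 7 were tested and 0 called, with a median of 0.01. Of all tested genes 1.57% were called lower and 0.884% higher. The antisense gene Hoxaas3 had the smallest p (0.35, SE 0.21, edgeR adjusted p = 0.396), followed by Hoxa11os (−0.70, SE 0.45, edgeR adjusted p = 0.421). Hoxa11os was at 0.983, 0.998 and 1.01 CPM in EPR cKO 4, 5 and 6 and at 1.95 to 6.37 CPM in EPR fl/fl, as low in these mice as the A cluster genes beside it. The clusters also hold microRNA genes of the miR-10 and miR-196 families, which are known to act on Hox transcripts. Their mature sequences, shown to place the Hox clusters' own regulators beside the Hox genes, fall into 2 seed groups (RefSeq, GRCm38.p6, seed of bases 2 to 8 in capitals):
miR-10a-5p (chr11:96317186-96317208, plus strand): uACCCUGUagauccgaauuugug
miR-10b-5p (chr2:74726074-74726096, plus strand): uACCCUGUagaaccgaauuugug
miR-196a-5p (chr11:96265187-96265208, plus strand): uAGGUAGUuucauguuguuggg
miR-196b-5p (chr6:52230129-52230150, minus strand): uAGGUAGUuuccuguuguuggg
The hairpin gene Mir196a-1, which lies between Hoxb13 and Hoxb9, had 71 to 220 counts in EPR fl/fl and 94 to 223 in EPR cKO, and a log2 fold change of 0.16 (SE 0.16, edgeR adjusted p = 0.620). Mir10a had 6 to 29 and 7 to 25 counts, and Mir10b and Mir196b had at most 4 and 6 counts in a library. Total RNA libraries count reads over the hairpin locus, not the mature microRNA.

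Start sites of the genes that carried these patterns are shown for comparison, as the 250 bases upstream (RefSeq, GRCm38.p6, 5′ to 3′ on the strand of the gene). Hoxa13 and Hoxa11 stand for the genes with wide spread in EPR cKO, Hoxd8 for those set apart by EPR cKO 1, and Hoxb8 for those with a small spread in EPR cKO, though its spread in EPR fl/fl was larger than that of Hoxa11 or Hoxd8. Capitals mark the letters TTTATG on either strand (CATAAA when on the other), a word within sites that Cdx proteins bind, searched after the data were seen:
Hoxa13 (chr6:52260881-52261130, minus strand): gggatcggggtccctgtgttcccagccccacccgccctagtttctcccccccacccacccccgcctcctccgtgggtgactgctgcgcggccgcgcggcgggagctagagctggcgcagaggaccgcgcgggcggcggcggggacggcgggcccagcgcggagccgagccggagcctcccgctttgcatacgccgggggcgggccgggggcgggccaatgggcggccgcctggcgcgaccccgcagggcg
Hoxa11 (chr6:52245811-52246060, minus strand): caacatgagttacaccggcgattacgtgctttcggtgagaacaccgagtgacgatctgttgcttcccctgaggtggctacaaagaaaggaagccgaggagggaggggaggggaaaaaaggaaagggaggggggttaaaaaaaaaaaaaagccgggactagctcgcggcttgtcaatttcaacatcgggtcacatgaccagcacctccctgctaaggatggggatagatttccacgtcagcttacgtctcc
Hoxd8 (chr2:74704365-74704614, plus strand): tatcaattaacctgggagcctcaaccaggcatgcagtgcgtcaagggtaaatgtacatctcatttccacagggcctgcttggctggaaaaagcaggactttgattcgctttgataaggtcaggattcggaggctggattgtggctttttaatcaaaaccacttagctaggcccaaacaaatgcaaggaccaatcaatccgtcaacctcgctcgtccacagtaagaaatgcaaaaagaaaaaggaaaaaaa
Hoxb8 (chr11:96281655-96281904, plus strand): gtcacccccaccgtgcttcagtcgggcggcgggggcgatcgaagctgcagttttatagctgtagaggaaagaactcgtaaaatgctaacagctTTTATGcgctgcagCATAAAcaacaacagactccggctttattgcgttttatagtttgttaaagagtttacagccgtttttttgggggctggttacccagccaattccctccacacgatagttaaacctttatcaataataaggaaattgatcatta
The Hoxa13 window was 80.0% GC with 35 CpG dinucleotides, Hoxa11 52.0% with 13, Hoxd8 44.4% with 6 and Hoxb8 44.4% with 12, where the median of all 32851 promoter windows was 52.4% with 6. The word occurred 2 times in the Hoxb8 window and 0 times in the other 3. In the windows of Hoxd4 and Hoxb4, also of small spread in EPR cKO (SD 0.20 and 0.235), it occurred 1 and 0 times. It also occurred 2 times in the Hoxa7 window, 1 time in that of Hoxd3 and 1 time in 1 of the Hoxd11 windows. These 3 genes had larger SDs in EPR cKO, 0.47, 0.39 and 0.90. RefSeq windows matched 22 of the 39 Hox genes (24 windows), of which 5 (20.8%) held the word, beside 10.8% of all windows. A match is a run of letters and not a measured site.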

How the data were processed

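Total RNA libraries (stranded kit, ribosomal RNA depleted) of 12 proximal colons were trimmed, aligned to mm10 with STAR 2.5.3a and counted per Ensembl gene with featureCounts by the authors, per the methods and the submitters' processing notes. The authors deposited 1 table of raw counts, with neither scaling nor filter, and with the exon coordinates and summed exon length of each gene. Strand setting and treatment of reads with several alignments were not given in the sources used here. All count columns were matched to samples by title, and 0 were left without a sample.

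Genes with at least 1 CPM in at least 4 libraries were kept (15952 of 36694 with any count), scaled by TMM, and tested across all genes in R 4.3.3 with edgeR 4.0.16 (glmQLFit and glmQLFTest, no covariate, Benjamini-Hochberg adjustment over all tested genes). SEs were taken as the absolute log2 fold change over the root of the F statistic. The test was checked on simulated counts. Levels per kilobase used the summed exon length. Alternatives were DESeq2 size factors, total counts, no filter, filterByExpr, the DESeq2 1.42.0 Wald test, limma 3.58.1 voom without and with quality weights, the replicate number as a block, the tissue composition score as a covariate, and each library left out in turn. Counts limit precision through counting error and, above it, a common biological coefficient of variation of 26.1%. Over the 30 pairs of libraries within groups no repeat of a library was seen (smallest chi-square per gene 24.7).

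The Hox genes, the lists and the tests were chosen with earlier results of these data known. Genes given by library were the members past the threshold or without overlap (none), those of group 13 with counts, and the 6 of highest level per kilobase. Of each other list the genes past an adjusted p of 0.05 or, failing that, the 2 with the smallest p were named. Any other gene was chosen after its values were seen. Exon overlap came from the exon coordinates deposited with the counts, and promoter and microRNA sequences from RefSeq. Not every gene of these lists is reported here.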

Additional observations from a re-analysis of the deposited data

Results flagged for a closer look

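In 5 of 50 sets of 6 values (the 23 tested Hox genes and the 2 ratios, in each genotype) 1 library lay far from the others by Dixon's criterion, where chance gives about 1 in 20 sets, or 2.5 of 50. The sets share the same 12 libraries and are not independent, so that 5 beside 2.5 is no test. All 5 values set apart were of EPR cKO 1. It was far above the other 5 EPR cKO libraries for Hoxa11 (11.1 CPM, others 1.251 to 4.11), Hoxd8 (17.1 CPM, others 3.59 to 6.95), Hoxd9 (9.96 CPM, others 1.28 to 3.10) and Hoxd10 (14.8 CPM, others 1.597 to 3.604), and below them for Hoxb9 (27.1 CPM, others 37.1 to 42.1). The same library had the lowest tissue composition score of the 12, 0.44.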

How the results depend on the processing

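The count of Hox genes called lower in EPR cKO was 0 in 8 of 9 alternatives with all libraries and 5 with limma-voom quality weights. Of all tested genes, 0.662% to 2.97% were called lower in those 8 and 11.9% with quality weights. The Hox count ran from 0 to 6 when 1 library was left out, the 6 being without EPR cKO 1, and the count called higher was 0 in all of these fits. Of all tested genes, 0.914% to 14.4% were called lower when 1 library was left out. With the replicate block 0 Hox genes were called in either direction (smallest edgeR adjusted p 0.175), beside 1.54% of all tested genes. Replicate numbers did not pair the mice, since deviations of same-numbered libraries correlated at −0.24 to 0.34, above 0.1 in 2 of 6 pairs. Group ratios kept their direction in every alternative run. Log2 fold changes, none past the threshold, changed sign with the composition score as covariate for Hoxa5 (0.006), Hoxa7 (−0.023), Hoxa10 (0.18), Hoxa11 (0.16), Hoxa13 (0.82), Hoxb4 (0.018), Hoxb7 (−0.11), Hoxd9 (0.25) and Hoxd10 (0.18), with total counts for Hoxb5 (−0.015) and Hoxb8 (−0.002), with no filter for Hoxb8 (−0.011), with limma-voom for Hoxa3 (−0.013) and Hoxb5 (−0.077), and with quality weights for Hoxa2 (0.093) and Hoxb5 (−0.12). They crossed 0 when 1 library was left out for Hoxa3 (−0.041 to 0.12), Hoxa13 (−0.88 to 0.064), Hoxb3 (−0.035 to 0.17), Hoxb4 (−0.18 to 0.10), Hoxb5 (−0.16 to 0.17) and Hoxb8 (−0.082 to 0.14). The causes were not tested. Depth limited group 13, where Hoxb13 and Hoxd13 had at most 5 and 2 counts in a library. With 6 mice in each group and wide SEs for cluster A, calls of 0 do not show equal levels.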
